A study of Mus musculus with 3 samples.

Results

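Accessible regions far from any gene were taken from 3 mouse ATAC-seq libraries: 5001 of 67219 regions (7.44%, 95% interval 7.24 to 7.64). ATAC-seq uses a transposase that inserts sequencing adapters into open DNA, and each deposited list gives the summits of the peaks of 1 library. The 47912 best-scoring summits of each list were widened by 250 bp on both sides and merged over the 3 lists into regions on the 19 autosomes. A region was distal when its midpoint lay outside every protein-coding gene of the mm10 genome and more than 100 kb from the nearest end of one. Among the regions built from the summits kept by score, the choice used position alone. The libraries in which a region was called and its rank among the kept summits were not part of it. The distance rule does limit the neighbours, to genes with more than 100 kb of gene-free sequence beside them. The libraries came from cells labelled mesenchymal stem cells, a population of connective tissue progenitors, from work on heterotopic ossification, in which bone forms in soft tissue. One library was of immobilized cells taken at day 7 after injury, 1 of non-immobilized cells at day 7 after injury and 1 of cells taken at day 0, before injury. The labels do not state strain, age, the kind of injury, the isolation of the cells or the number of animals.

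Distal accessible regions are usually enhancers, which bind transcription factors and contact promoters through loops of chromatin, or sites that anchor those loops, such as binding sites of CTCF. Genes that control development often border long stretches without protein-coding genes that hold many enhancers, each active in some tissues or stages. Such stretches also hold genes of long non-coding RNAs (lncRNAs) and of microRNAs (miRNAs), short RNAs that repress messenger RNAs through a seed at their 5′ end.

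Each group has 1 library, so nothing below was checked in replicates or tested for significance. Shares are given with 95% Clopper-Pearson limits and densities with exact Poisson limits, which reflect only counting error. Sequencing gave 143818952 read pairs for day 7 immobilized, 173029378 for day 7 non-immobilized and 176119937 for day 0, of which 43.4%, 42.0% and 60.2% were duplicates in the same order. The deposited lists held 67404 summits for day 7 immobilized, 47912 for day 7 non-immobilized and 51722 for day 0. Of 11 mesenchymal markers, 11 had a region within 1 kb of the gene in day 7 immobilized, 9 in day 7 non-immobilized and 10 in day 0, with Lepr lacking in the last pair of libraries and Ly6a in day 7 non-immobilized. Markers of other cells differed among the libraries. The 6 keratinocyte markers had 21 regions in day 7 immobilized, 8 in day 7 non-immobilized and 6 in day 0, and Krt5 and Krt14 had one in day 7 immobilized alone. The 7 endothelial markers had 17 regions in day 7 immobilized, 29 in day 7 non-immobilized and 9 in day 0. The 4 pericyte and smooth muscle markers had 7, 8 and 17 regions and the 4 skeletal muscle markers 9, 7 and 13, in the same order of libraries, while the 5 leukocyte markers had at most 2. In bulk libraries a different share of a cell type and a different accessibility within each cell cannot be told apart.

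Sequence is shown for distal regions whose summit lay in the promoter of an lncRNA, because these are the distal regions with a transcript annotated at them. The summits of 76 distal regions fell in 80 such windows of 77 lncRNA genes, each from 250 bases before the start to 50 bases after it. The windows below are from RefSeq on GRCm38.p6, the assembly of mm10, written 5′ to 3′ along the gene, and were picked after their values were seen. Capitals mark matches on either strand to TGANTCA, the AP-1 motif bound by Fos and Jun proteins, or TGTGGT, the core of the RUNX motif.
Gm33323, chr7:129764377-129764676, plus strand, called in day 7 immobilized alone, between Wdr11 and Fgfr2: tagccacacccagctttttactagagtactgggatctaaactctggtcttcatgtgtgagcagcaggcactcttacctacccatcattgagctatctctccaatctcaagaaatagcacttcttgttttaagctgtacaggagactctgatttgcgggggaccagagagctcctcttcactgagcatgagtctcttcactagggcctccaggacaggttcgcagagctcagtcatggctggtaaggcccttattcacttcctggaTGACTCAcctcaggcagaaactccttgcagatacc
Mir205hg, chr1:193510161-193510460, minus strand, called in day 7 immobilized alone, between Camk1g and Plxna2: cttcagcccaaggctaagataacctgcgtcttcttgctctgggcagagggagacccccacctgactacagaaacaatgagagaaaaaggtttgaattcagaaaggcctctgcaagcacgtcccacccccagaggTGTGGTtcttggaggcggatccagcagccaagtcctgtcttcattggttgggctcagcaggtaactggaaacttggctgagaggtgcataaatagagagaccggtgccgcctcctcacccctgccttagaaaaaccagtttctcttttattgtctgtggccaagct
Gm30657, chr5:118413532-118413831, minus strand, called in all 3 libraries, between Spring1 and Med13l: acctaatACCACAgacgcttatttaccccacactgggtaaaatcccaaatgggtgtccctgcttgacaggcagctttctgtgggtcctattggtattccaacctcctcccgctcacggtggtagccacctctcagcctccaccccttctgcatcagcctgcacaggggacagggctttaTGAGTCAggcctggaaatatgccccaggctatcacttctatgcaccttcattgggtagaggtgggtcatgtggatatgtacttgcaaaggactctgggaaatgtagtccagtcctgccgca
Morrbid, chr2:128429302-128429601, minus strand, called in all 3 libraries, between Bcl2l11 and Spdye4c: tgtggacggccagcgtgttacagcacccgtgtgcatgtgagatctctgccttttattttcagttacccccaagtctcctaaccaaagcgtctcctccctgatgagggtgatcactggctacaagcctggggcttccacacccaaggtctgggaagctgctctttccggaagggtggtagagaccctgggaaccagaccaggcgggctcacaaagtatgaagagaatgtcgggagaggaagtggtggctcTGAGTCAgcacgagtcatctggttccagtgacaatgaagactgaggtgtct
Gm8883, chr1:71887862-71888161, plus strand, called in all 3 libraries, between Fn1 and Mreg: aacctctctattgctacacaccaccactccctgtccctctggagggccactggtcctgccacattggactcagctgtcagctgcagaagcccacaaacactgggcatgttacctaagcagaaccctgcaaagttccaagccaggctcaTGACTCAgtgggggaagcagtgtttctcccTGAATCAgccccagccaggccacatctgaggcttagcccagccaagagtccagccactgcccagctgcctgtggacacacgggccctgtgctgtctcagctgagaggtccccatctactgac
Gm33323 and Morrbid hold 1 AP-1 match each, Gm8883 holds 2, Gm30657 holds 1 beside a RUNX match, and Mir205hg holds a RUNX match alone.

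The mature miRNAs below, also from RefSeq, have their genes in distal sequence with a distal region nearby. Capitals mark the seed, bases 2 to 8.
miR-29a-3p: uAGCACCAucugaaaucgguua
miR-29b-3p: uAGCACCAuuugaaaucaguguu
miR-99a-5p: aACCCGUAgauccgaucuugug
miR-100-5p: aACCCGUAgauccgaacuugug
let-7c-5p: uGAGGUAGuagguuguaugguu
miR-125b-5p: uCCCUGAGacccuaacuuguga
miR-205-5p: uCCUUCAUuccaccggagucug
The miR-29 pair shares the seed AGCACCA and miR-99a and miR-100 share ACCCGUA, while let-7c, miR-125b and miR-205 each have a seed of their own among the 7. The miR-29 family represses collagen genes, and miR-205 is abundant in epithelia.

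Distal regions were called in fewer libraries than the remaining regions, and regions called at day 0 alone made up most of the difference. All 3 libraries called 1460 distal regions (29.2%, 27.9 to 30.5), against 45.8% of the 62218 remaining regions and 44.5% of all regions. Day 0 alone called 1217 distal regions (24.3%, 23.2 to 25.5), against 13.4% (13.1 to 13.7) of the remaining and 14.2% of all. Day 7 immobilized alone called 756 distal regions (15.1%, 14.1 to 16.1), against 11.6% of the remaining and 11.9% of all. Day 7 non-immobilized alone called 530 (10.6%), against 10.6% of the remaining and 10.6% of all, so this class was as frequent in both sets. Both day 7 libraries without day 0 called 379 (7.58%, background 8.3%), day 7 immobilized with day 0 called 353 (7.06%, background 5.36%), and day 7 non-immobilized with day 0 called 306 (6.12%, background 5.13%). By library, distal regions made up 6.26% (6.04 to 6.48) of the regions of day 7 immobilized, 5.81% (5.60 to 6.02) of those of day 7 non-immobilized and 7.17% (6.94 to 7.41) of those of day 0.

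**Figure D1:**
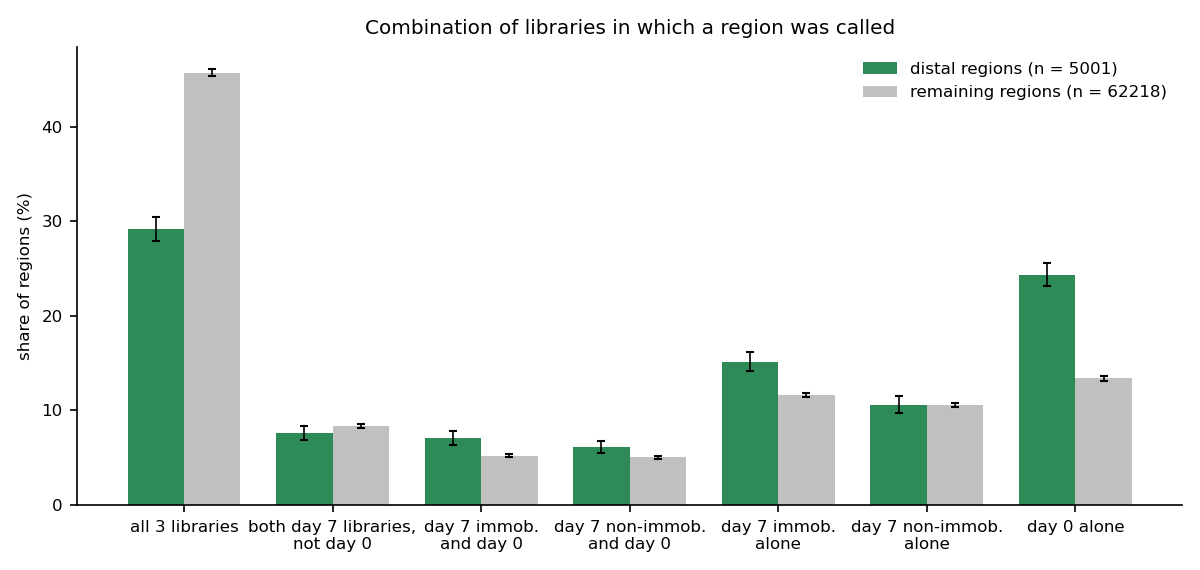
Share of regions (%) called in each combination of libraries, for 5001 distal regions (green) and 62218 remaining regions (grey), with exact 95% binomial intervals for counting error. The distal bars are lower for all 3 libraries (29.2% against 45.8%) and higher for day 0 alone (24.3% against 13.4%).

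Between the day 7 libraries, which differ in immobilization, 1109 distal regions were called only in immobilized cells, 836 only in non-immobilized cells and 1839 in both. The background of all regions was 20.1% only in immobilized and 18.3% only in non-immobilized cells, against 29.3% and 22.1% of the 3784 distal regions called in either. Of the distal regions called in 1 of these libraries, 57.0% (54.8 to 59.2) were in immobilized cells, and of the remaining regions 51.9% (51.2 to 52.6). Against day 0 both day 7 libraries had the smaller share. Immobilized cells alone called 1135 distal regions and day 0 alone 1523, a share of 42.7% (40.8 to 44.6) in immobilized cells, against 52.0% among the remaining regions. The backgrounds were 22.6% only in immobilized cells and 21.6% only at day 0, beside 25.4% and 34.1% of distal regions. Non-immobilized cells alone called 909 and day 0 alone 1570, a share of 36.7% (34.8 to 38.6) in non-immobilized cells, against 50.4% among the remaining regions. The backgrounds were 21.4% only in non-immobilized cells and 22.2% only at day 0, beside 21.4% and 37.0% of distal regions. These 3 comparisons share libraries and are not independent of each other. The length of the lists matters for the direction against day 0: with the lists as deposited, the immobilized one being longest, 64.4% of distal one-library regions fell in immobilized cells and not at day 0, against 72.2% of the remaining regions. The distal share thus lay under the remaining share in both cases, while its side of 50% turned round.

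Some one-library calls came from the equal list length. Of the 1217 distal regions of day 0 alone, 280 (23.0%) held a weaker summit in the whole list of immobilized cells. In either whole day 7 list, 937 (77.0%, 74.5 to 79.3) held none. Among the remaining regions of day 0 alone these shares were 27.0% and 73.0% (72.0 to 73.9). Of the 530 of non-immobilized cells alone, 193 (36.4%) held a weaker summit in immobilized cells and 325 (61.3%) were absent from both other lists. The remaining regions gave 37.0% and 60.9%. Of the 756 distal regions of immobilized cells alone, 729 (96.4%, 94.8 to 97.6) were absent from both other lists, against 97.1% of the remaining regions. For immobilized cells alone and non-immobilized cells alone these shares lay near those of the remaining regions, so they are not particular to distal regions. For day 0 alone the share absent from both day 7 lists was somewhat higher in distal regions, with limits that did not overlap. The list of non-immobilized cells was used whole, so it held no weaker summits. A region without a listed summit need not be closed.

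Distal regions ranked low in every library. On a scale where 0% is the best score of a list and 100% the lowest of the 47912 kept, the median distal region stood at 63.4% in day 7 immobilized, 64.4% in day 7 non-immobilized and 64.1% at day 0, against 48.2%, 47.4% and 47.4% for the remaining regions. The best 10% of the summits held 21 distal regions in day 7 immobilized, 21 in day 7 non-immobilized and 22 at day 0. These were 0.71%, 0.79% and 0.66% of the distal regions of each library, against 10.8%, 11.0% and 11.0% of the remaining regions. Low rank and few libraries go together, so the patterns were also set side by side within bands of the best rank. For a best rank of 20 to 40%, all 3 libraries called 75.4% (72.5 to 78.1) of 942 distal regions and 80.4% of the remaining. For 40 to 60%, they called 33.6% (30.9 to 36.4) of 1173 distal regions and 42.5% of the remaining. From 60% on the shares came within the interval of each other, 11.7% against 12.7% at 60 to 80% and 1.54% against 1.57% at 80 to 100%. The larger share of day 0 alone stood in every band from 20%: 2.97% against 1.42%, 15.4% against 9.21%, 31.5% against 22.4%, and 42.5% against 32.3%, distal regions first. For immobilized cells alone the distal share was the larger at 20 to 40% (3.82% against 2.01%) and 40 to 60% (11.8% against 9.25%), and the smaller at 80 to 100% (24.98% against 27.5%).

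The regions thinned out with distance, and day 0 alone took a growing part of those left. Between genes, 173 regions lay in each Mb of sequence within 1 kb of a gene end, 19.5 at 50 to 100 kb, 13.9 at 100 to 200 kb, 7.89 at 200 to 400 kb, 3.20 at 400 to 800 kb and 0.50 beyond. Distal sequence came to 679.7 Mb, or 47.0% of the sequence between genes, at 7.35 regions per Mb (7.14 to 7.55), against 33.3 (32.9 to 33.7) in gaps within 100 kb of a gene end. In the same order of distance from 50 kb on, the share called in all 3 libraries was 33.8%, 31.0%, 27.9%, 25.05% and 14.5% (6.50 to 26.7). The share of day 0 alone was 18.3%, 21.2%, 26.5%, 32.8% and 40.0% (27.0 to 54.1), the last being 22 of 55 regions. Immobilized cells alone stood between 13.8% and 18.2% from 1 kb outwards, and non-immobilized cells alone between 9.91% and 11.3%. With the lists as deposited, day 0 alone still went through 13.0%, 15.2%, 20.3%, 23.9% and 33.8% over these 5 distances, and lists shortened to 50% of the common length gave 20.2%, 23.9%, 23.9%, 38.2% and 54.5%, the last from 11 regions. Of the 302 distal regions more than 500 kb from a gene end, 102 (33.8%, 28.5 to 39.4) were called at day 0 alone and 61 (20.2%, 15.8 to 25.2) in all 3. Day 0 had the most duplicates, and this difference in library quality was not tested for its part in the trend.

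**Figure D2:**
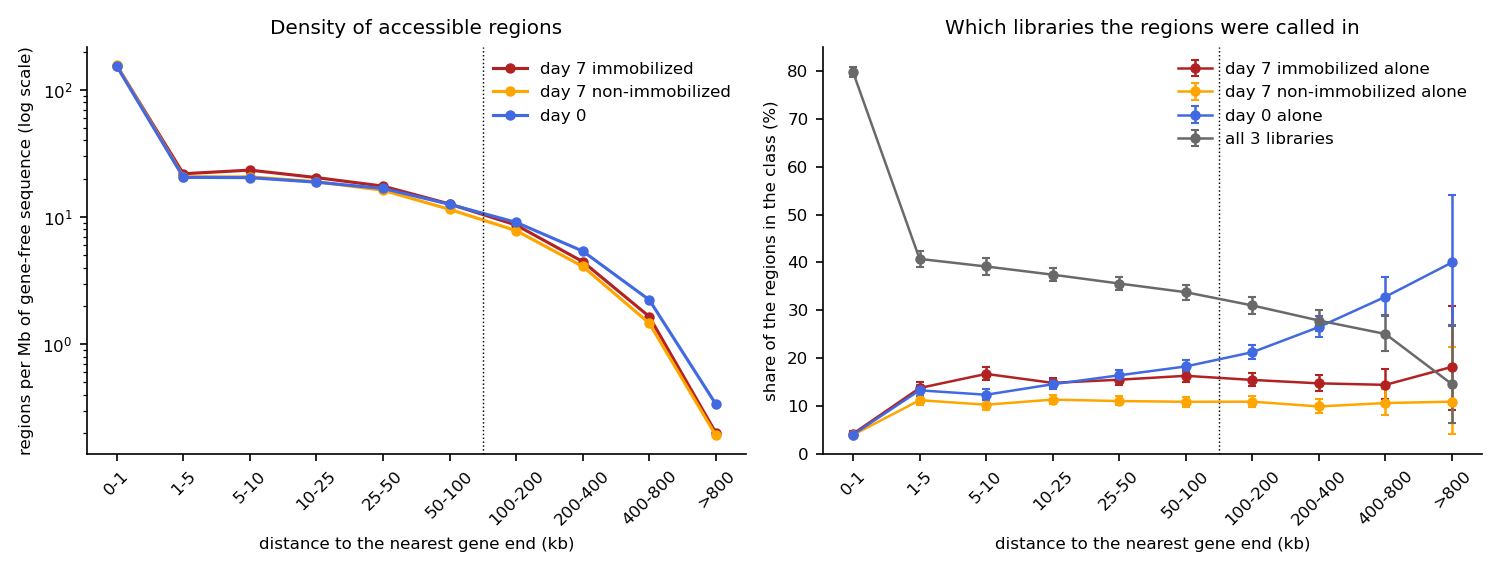
Left, regions per Mb of sequence between genes (log scale) in each library against distance to the nearest gene end (kb). Right, share of the regions of each distance (%) called in 1 library alone or in all 3, with exact 95% binomial intervals. The dotted line marks 100 kb, beyond which regions are distal. Day 0 alone reaches 40.0% and all 3 libraries 14.5% beyond 800 kb.

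At the threshold itself, the 3 distal regions nearest to it lay 100.021 kb from Nfia, 100.053 kb from Pgrmc2 and 100.069 kb from Ankrd55, called at day 0 alone, at day 0 alone and in immobilized cells alone. The 3 regions just short of it lay 99.967 kb from Maf, 99.965 kb from Galnt18 and 99.909 kb from Obox2, called in all 3 libraries, in immobilized cells alone and in non-immobilized cells alone.

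Distal regions gathered in a part of the gene-free intervals. Of 1393 intervals over 200 kb between neighbouring protein-coding genes, 819 held at least 1 distal region and 574 (41.2%) held none. The intervals with distal regions were the longer ones, with a median length of 528.1 kb, against 326.3 kb for those without, and the outer 100 kb at each end of an interval cannot hold a distal region. The 157 intervals with 10 or more held 2948 of the 5001 (58.9%), and 117 intervals were enough for 50% of them. The nearest other distal region lay at a median of 8.65 kb, and 2668 (53.3%, 52.0 to 54.7) had one within 10 kb. Neighbouring distal regions within 2 kb had the same library pattern in 28.4% (24.8 to 32.2) of 592 pairs, those 2 to 10 kb apart in 26.9% (24.2 to 29.6) of 1065, those 10 to 50 kb apart in 28.1% (25.9 to 30.4) of 1633 and those 50 to 200 kb apart in 23.0% (19.97 to 26.2) of 736. Any pair of distal regions would in 19.3%. The share thus did not differ beyond its interval up to 50 kb.

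The interval with the most distal regions, 54 in 1207.5 kb, ran from Klf4, a transcription factor of epithelial differentiation and of pluripotency, to Actl7b, an actin-like gene of the testis. Its counts were 38 in day 7 immobilized, 24 in day 7 non-immobilized and 29 at day 0. The 52 regions between Myc, the growth-promoting transcription factor, and Gsdmc, a gasdermin gene, were spread evenly, at 35, 35 and 38 in the same order, with 23 called in all 3. Zeb2, a repressor active in epithelial-mesenchymal transition, and Acvr2a, an activin and BMP receptor, enclosed 44. Their count was highest at day 0, with 18 in day 7 immobilized, 14 in day 7 non-immobilized and 32 at day 0. Day 0 was the highest over all distal regions too, with 2948, 2675 and 3336 in the same order. Day 0 also led between Mctp2 and Rgma, a BMP co-receptor, with 26, 18 and 31, between Dhx35 and Gm826 with 16, 17 and 28, and between Plpp3 and Usp24 with 22, 22 and 29. The lead between Plpp3 and Usp24 depended on the length of the lists, with 40, 22 and 29 as deposited and 5 in each library for lists of 50% of the common length. Dhx35-Gm826 gave 24, 17 and 29 and then 6, 5 and 6, and Zeb2-Acvr2a 36, 14 and 37 and then 6, 1 and 4.

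The interval from Klf14 to Mkln1 was the densest of the 12 fullest, with 37 regions at 15.4 per 100 kb of distal sequence, and counts of 29 in day 7 immobilized, 26 in day 7 non-immobilized and 25 at day 0. It holds the lncRNA Lncpint and the miR-29 genes. The interval from Gm5148 to Ankrd50 held 41 regions (26, 28 and 34), of which 20 were called in all 3 libraries. The interval from Mn1, a transcriptional co-regulator, to Cryba4, a lens crystallin gene, held 33 (23, 20 and 30), with 17 in all 3. Mki67-Mgmt held 41 (23, 29 and 31), Cd83-Jarid2 37 (21, 28 and 29) and Med13l-Tbx3 34 (17, 17 and 22). Among these 12 intervals, the count was highest in day 7 immobilized in 2, Klf4-Actl7b and Klf14-Mkln1, and highest at day 0 in the other 10. Over all distal regions day 0 was also the highest, calling 66.7%, against 58.9% in immobilized and 53.5% in non-immobilized cells. A lead of day 0 is thus not particular to these 10 intervals. The split of the 12 intervals changed with the length of the lists. As deposited, with the list of immobilized cells the longest, the count was highest in immobilized cells in 7, adding Myc-Gsdmc (44, 35 and 43), Gm5148-Ankrd50 (36, 28 and 35), Cd83-Jarid2 (35, 28 and 32), Med13l-Tbx3 (27, 17 and 23) and Plpp3-Usp24, and at day 0 in 5. With lists of 50% of the common length it was highest in immobilized cells in 3, Klf4-Actl7b (12, 9 and 9), Cd83-Jarid2 (12, 11 and 8) and Zeb2-Acvr2a, in non-immobilized cells in Klf14-Mkln1 (13, 17 and 11), and at day 0 in 4, with 4 ties. Klf4-Actl7b was highest in immobilized cells, and Mctp2-Rgma, Mki67-Mgmt and Mn1-Cryba4 at day 0, under all 3 lengths.

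**Figure D3:**
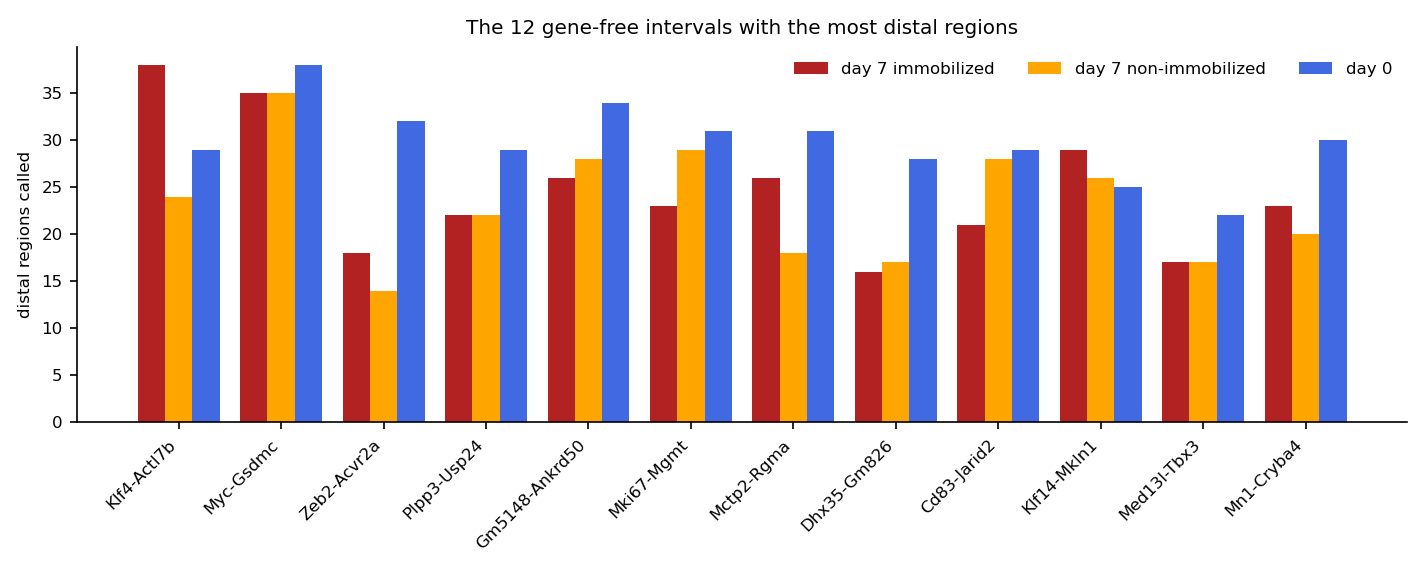
Number of distal regions called in each library in the 12 gene-free intervals with the most, each named by its flanking genes. Klf4-Actl7b has 38 in day 7 immobilized, 24 in day 7 non-immobilized and 29 at day 0, and Zeb2-Acvr2a has 18, 14 and 32.

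The intervals that leaned most to 1 library were picked for that lean, so their counts describe it and test nothing. Towards immobilized over non-immobilized cells leaned the interval from Slc4a3 to Epha4, an ephrin receptor gene, with 14 regions only in immobilized cells, 0 only in non-immobilized cells and 6 in both. Klf5-Klf12, between a transcription factor gene of epithelia and its relative, had 12 and 0 with none in both, Klf4-Actl7b 19 and 5 with 19 in both, Celf2-Gata3 13 and 2 with 3 in both, and Ahr-Agr3 7 and 0. Gata3 encodes a transcription factor of skin, endothelium and T cells, and Ahr the aryl hydrocarbon receptor. With the lists as deposited the counts were 19 and 0, 17 and 0, 26 and 2, 22 and 2, and 9 and 0 in the same order, but immobilized cells then had 19492 more summits and took 85.2% of all distal regions called in 1 of the day 7 libraries, so these counts say nothing about how stable the lean is. With lists of 50% of the common length they were 1 and 0, 4 and 0, 5 and 2, 4 and 0, and 3 and 0, beside 58.9% in immobilized cells over all distal regions. Immobilized cells were also the library with the most regions at the keratinocyte markers (21, against 8 in non-immobilized cells and 6 at day 0), whose part in these leans was not tested.

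Towards non-immobilized over immobilized cells the leans were smaller. Fat4-Intu, beside the protocadherin gene Fat4, had 0 regions only in immobilized cells and 7 only in non-immobilized cells, LOC100862468-Vmn1r2 0 and 5, Cd83-Jarid2 2 and 9, Wac-Fzd8 0 and 4, and Arglu1-Fam155a 0 and 4. With the lists as deposited these became 2 and 4, 0 and 5, 13 and 6, 2 and 3, and 1 and 2, so that Cd83-Jarid2 turned round. With lists of 50% of the common length Cd83-Jarid2 stood at 4 and 3, Fat4-Intu and Wac-Fzd8 at 1 and 1, and Arglu1-Fam155a at 0 and 1. LOC100862468-Vmn1r2 then held 0 regions. At equal length the 5 regions nearest to Vmn1r2 all lay between 103.0 and 120.6 kb from it.

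Against day 0, the interval from Plk2, a polo-like kinase gene, to Actbl2 leaned to both day 7 libraries. It had 11 regions only in immobilized cells against 1 only at day 0, and 12 only in non-immobilized cells against 1 only at day 0. Prdm1-Prep, beside the repressor gene Prdm1, was called in both day 7 libraries and not at day 0, with 8 in immobilized cells, 5 in non-immobilized cells and 0 at day 0. A1bg-Myc, the gap on the other side of Myc, had 10 only in immobilized cells and 0 only at day 0, Celf2-Gata3 14 and 2, and Rragc-Pou3f1 9 and 0. Adgrl2-Adgrl4 had 7 only in non-immobilized cells and 0 only at day 0, Kif2a-Zswim6 6 and 0, and Tmem17-B3gnt2 5 and 0. With lists of 50% of the common length Prdm1-Prep held 0 regions in immobilized cells and 3 in non-immobilized cells, and Rragc-Pou3f1 held 1 in immobilized cells.

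In the other direction, the interval from Ebf1, a transcription factor of fat, mesenchymal and B cells, to Clint1 held 18 distal regions, all of them called at day 0, with 7 in immobilized and 7 in non-immobilized cells. Each comparison gave 0 only in the day 7 library and 11 only at day 0. Immobilized cells had 0 regions of their own and day 0 had 9 in Fut8-Gm6657, 0 and 8 in Klhl29-Apob, 0 and 8 in Kazn-Prdm2, and 2 and 12 in Tnp1-Tns1, beside the tensin gene Tns1. Non-immobilized cells had 4 and day 0 had 22 in Zeb2-Acvr2a, 1 and 14 in Mctp2-Rgma, 0 and 10 in Slc4a3-Epha4, and 0 and 9 in Auts2-Castor2. With the lists as deposited Ebf1-Clint1 had 0 and 8 for immobilized cells and day 0, and with lists of 50% of the common length 0 and 5. The long list of immobilized cells evened out Zeb2-Acvr2a, where it had 15 regions against 16 of day 0 as deposited, while non-immobilized cells had 4 against 27.

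**Figure D4:**
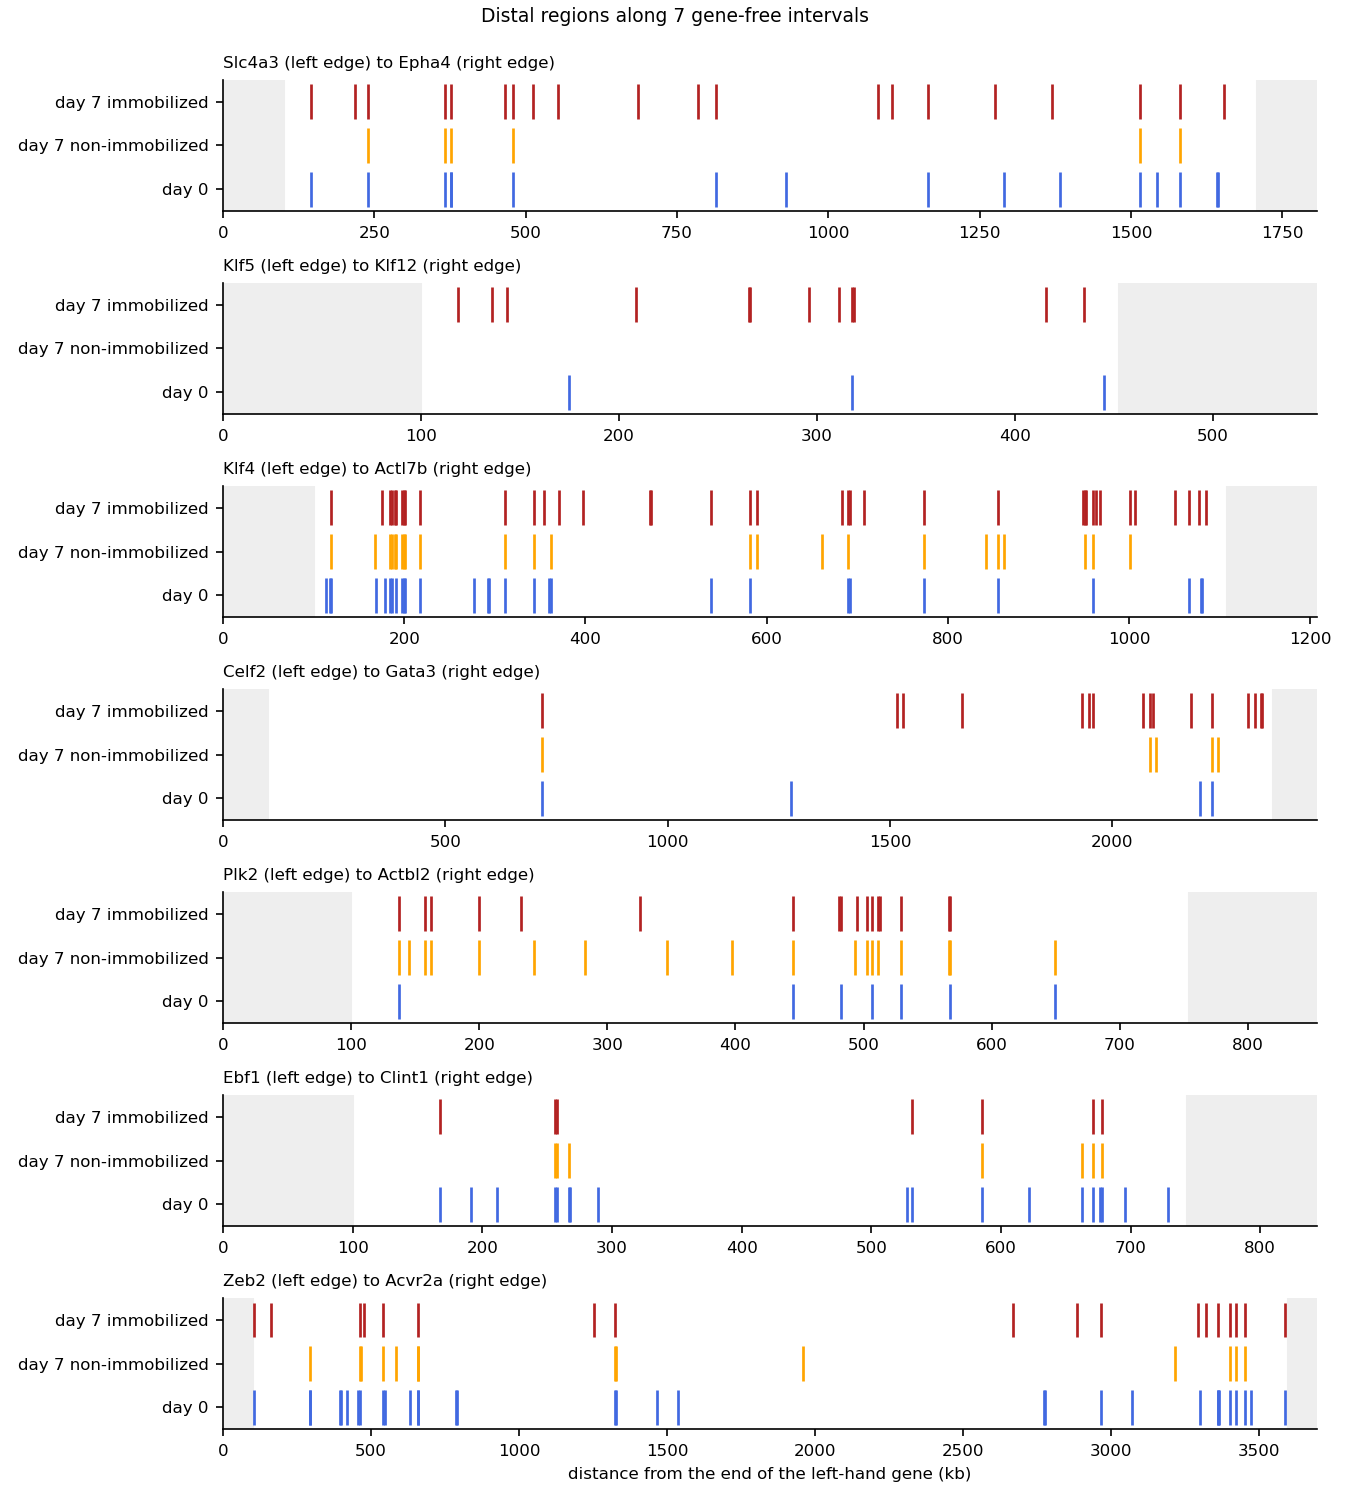
Distal regions (ticks) called in each library along 7 gene-free intervals, against distance (kb) from the end of the left-hand gene. Grey marks the 100 kb beside each gene, where regions are not distal. Klf5-Klf12 shows 12 ticks in day 7 immobilized, 0 in day 7 non-immobilized and 3 at day 0, and Ebf1-Clint1 shows 7, 7 and 18.

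By the nearer of the flanking genes, 931 distal regions (18.6%, 17.5 to 19.7) fell to 176 genes of 13 lists, which hold 298 (12.6%) of the 2374 genes that border an interval. The first share counts regions and the second genes, and intervals differ in length, so the shares are not alike. The limits count regions at the same gene as separate. Because the lists were chosen with earlier results of these data known, the shares test no enrichment. The median over all 1179 nearer genes was 2 distal regions per gene. Transcription factors of limb and mesenchyme had the most, 269 regions at 51 genes, with a median of 4. They were called in 150 cases in day 7 immobilized, 133 in day 7 non-immobilized and 160 at day 0, where all distal regions gave 2948, 2675 and 3336. All 3 libraries called 20.8% (16.1 to 26.2) of them, beside 29.2% of all distal regions. Zeb2 had 25 of these (8, 9 and 19 in the same order of libraries), Nfib, a nuclear factor I gene, 21 (13, 9 and 11), Tcf4, a basic helix-loop-helix gene, 20 (13, 14 and 14), and Id2, an inhibitor of such factors, 20 (6, 8 and 15). Tbx3, a T-box gene of the limb, had 15 (6, 7 and 13), of which 7 were called at day 0 alone and 0 in immobilized cells alone.

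The homeobox gene Meis1 had 5 regions (3, 4 and 5) and Meis2 1. Gli3, the hedgehog effector, had 5 (2, 0 and 3), the nuclear receptor genes Nr2f1 4 (1, 0 and 3) and Nr2f2 1, at day 0. Of a set of 20 genes that was looked up whatever its counts, 8 had no distal region as the nearer gene: Runx2, Prrx1, Pitx1, Twist1, Ebf2, Pdgfra, Tbx5 and Krt14. Pitx1 flanked 2 distal regions that lay nearer to the gene on their other side, and none of the other 7 flanked any.

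Bone and cartilage genes had 84 distal regions at 10 genes, a median of 7.5 per gene, with 53 in day 7 immobilized, 43 in day 7 non-immobilized and 57 at day 0. Sox9, the master regulator of cartilage, had 10 (7, 6 and 4), between 110 and 436 kb from the gene. Its partners Sox5 and Sox6 had 7 (3, 5 and 4) and 11 (9, 3 and 5), and 6 of the 11 at Sox6 were called in immobilized cells alone. Runx1, a relative of Runx2, had 16 (14, 11 and 12), with 9 in all 3 libraries, and Sox4 19 (9, 10 and 14). BMP and TGF-beta genes had 74 regions at 10 genes (47, 34 and 54). Bmp2, a ligand that induces bone, had 13 (6, 7 and 8), Bmp4 12 (7, 2 and 10), the receptor genes Acvr2a 19 (10, 5 and 13) and Tgfbr2 8 (5, 6 and 6). Of the one-library regions of this list between day 7 libraries, 20 were in immobilized and 7 in non-immobilized cells, 74.1% (53.7 to 88.9) in immobilized cells, beside 57.0% of all distal regions. The named genes did not all lean this way. In the same order Acvr2a had 7 and 2 and Bmp4 5 and 0, while Bmp2 had 3 and 4 and Tgfbr2 0 and 1.

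Genes of AP-1, early response and stress factors had 128 distal regions at only 8 of their genes, a median of 8.5, and were called most often in immobilized cells: 92, against 75 in non-immobilized cells and 74 at day 0. Between immobilized cells and day 0, 44 were called only in immobilized cells and 26 only at day 0, a share of 62.9% (50.5 to 74.1) beside 42.7% of all distal regions. Myc had 43 of them (33, 27 and 23), Klf4 30 (20, 15 and 21), Klf6 22 (18, 14 and 11) and Ets1 10 (5, 7 and 8). Genes of the list with 7 or more regions did not all lean to immobilized cells. Only in immobilized cells and only at day 0, Myc had 15 and 5, Klf6 9 and 2, Klf5 6 and 1, and Ets2 4 and 1. Klf4 had 8 and 9, Ets1 1 and 4, and Jun, which encodes an AP-1 protein, 1 and 3. Growth factors, chemokines and their receptors had 99 regions at 22 genes (62, 37 and 56). Of these 36 were called only in immobilized and 11 only in non-immobilized cells, a share of 76.6% (62.0 to 87.7) beside 57.0% of all distal regions. Epha4 had 14 (8, 2 and 9), the chemokine gene Cxcl12 13 (8, 7 and 11), the ephrin gene Efnb2 12 (7, 6 and 6) and Igfbp3, which binds insulin-like growth factors, 10 (7, 4 and 3). The lean differed among these genes. Only in immobilized and only in non-immobilized cells, Epha4 had 6 and 0, Igfbp3 5 and 2, and Cxcl12 and Efnb2 3 and 2 each. Epha4 borders Slc4a3-Epha4, an interval named above for its lean between the same libraries. Wnt, FGF, Notch and hedgehog genes had 90 at 17 genes (60, 51 and 54). The Notch ligand gene Jag1 had 23 (16, 9 and 11), its target Hes1 10 (8, 8 and 7), the FGF antagonist Spry2 10 (7, 9 and 6), and Fgfr2 9 (7, 1 and 4).

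Matrix and adhesion genes had 83 distal regions at 17 genes (48, 47 and 58). The proteases Adamts9 and Adamts5 had 14 (9, 12 and 7) and 10 (8, 4 and 6), fibronectin, Fn1, 9 (5, 6 and 7), and decorin, Dcn, 6 (6, 4 and 4). Fat genes had 15 at 4 genes, 6 in immobilized cells, 5 in non-immobilized cells and 13 at day 0, of which Ebf1 had 8 (3, 3 and 8) and Irs1 and Irs2, insulin receptor substrates, 2 and 1, all at day 0. Cebpb, an early adipogenic factor, had 4 (3, 2 and 2). Of the neural adhesion and synaptic genes, 70 bordered an interval, and they had few regions, 57 at 28 genes with a median of 1. Of the 57 regions, 20 (35.1%, 22.9 to 48.9) were called at day 0 alone, an interval that holds the 24.3% of all distal regions. The lists whose interval left out 24.3% lay below it. They were Wnt, FGF, Notch and hedgehog genes at 13.3% (7.08 to 22.1) and AP-1, early response and stress factors at 14.8% (9.18 to 22.2). Ncam1 had 9 (6, 7 and 6), Pcdh18 8 (4, 2 and 8), Flrt2 5 (2, 4 and 1) and Sox2 4 (3, 0 and 3). Endothelial genes had 29 regions at 6 genes, 15 in each library, while the regions at the endothelial markers numbered 17, 29 and 9, and the part of such cells was not tested. Cdh5, the cadherin of endothelium, had 14 (6, 5 and 8), Nrp1 6, Mef2c 4 and Emcn 3. Keratinocyte genes had 1 region, at Itga6, YAP/TAZ and mechanical genes 2, at Fhl2 and Crim1, and skeletal muscle genes 0.

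**Figure D5:**
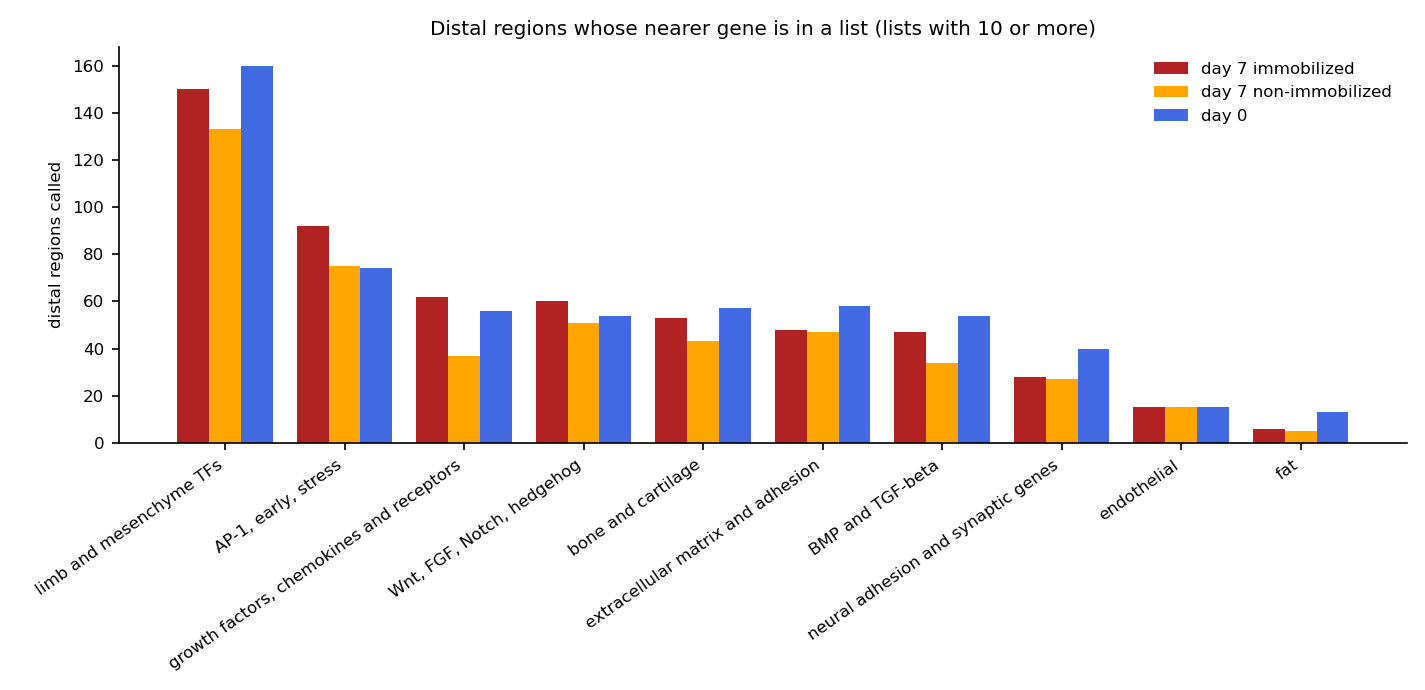
Number of distal regions called in each library whose nearer gene belongs to a list, for lists with 10 or more. AP-1, early response and stress factors have 92 in day 7 immobilized, 75 in day 7 non-immobilized and 74 at day 0, and fat genes have 6, 5 and 13.

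Non-coding genes lay over or beside many of these regions. Of the 5001, 1229 (24.6%, 23.4 to 25.8) lay inside an lncRNA gene and 3746 (74.9%) in no annotated gene, and 495 (9.90%) were more than 100 kb from any annotated gene, coding or not. The share inside an lncRNA gene was 27.4% (25.1 to 29.8) for regions called in all 3 libraries, 22.8% (19.8 to 25.9) for immobilized cells alone, 25.1% (21.5 to 29.0) for non-immobilized cells alone and 21.8% (19.5 to 24.2) for day 0 alone. The lncRNA 2610307P16Rik, beside Sox4, held 23 (11 in day 7 immobilized, 14 in day 7 non-immobilized and 15 at day 0). Lncpint held 20 (17, 14 and 13), Pvt1, next to Myc, 17 (12, 14 and 10), Morrbid, next to the pro-apoptotic gene Bcl2l11, 15 (10, 13 and 8), and Mir100hg, the host of miR-100 and miR-125b, 13 (10, 11 and 11).

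The 76 distal regions with a summit in an lncRNA promoter window were called in all 3 libraries in 30 cases (39.5%, 28.4 to 51.4), in immobilized cells alone in 15, in non-immobilized cells alone in 4 and at day 0 alone in 8. The AP-1 letters stood in 14 of the 80 windows (17.5%, 9.91 to 27.6), against 9.25% of 11311 lncRNA promoters and 7.84% of all 31396 promoters of that length. These 14 windows belonged to 13 regions, since Gm33323 and Gm33398 share a region. Each of the 14 was called in immobilized cells: 7 in all 3 libraries, 5 in immobilized cells alone and 2 in immobilized cells and at day 0. Of all 80 windows, 64 were called in immobilized cells, 45 in non-immobilized cells and 55 at day 0. Among the 16 not called in immobilized cells 0 held the AP-1 letters, and 16 windows are too few to set a narrow limit. The TEAD letters GGAATG stood in 23.8% (14.9 to 34.6), against 16.7% of lncRNA promoters, the RUNX letters in 22.5% (13.9 to 33.2), against 20.1%, and the CTCF core letters AGGGGGC in 8.75% (3.59 to 17.2), against 6.39%. All 7 windows with the CTCF letters were called in all 3 libraries, and they belonged to 6 regions, since Gm31676 and LOC115487949 share a region. The TEAD and RUNX windows belonged to 18 and 17 regions. Both strands were searched, none of the 4 strings of letters contains another, and a match is only a description of the window.

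Of the windows shown above, that of Gm33323 held the second-best region of immobilized cells alone, at chr7:129764417-129764917, with a score of 28.5 and a rank of 26.8%. A region nearer to Fgfr2, at chr7:130031977-130032477 and also called in immobilized cells alone, had a score of 28.3 and a rank of 27.1%. Fgfr2 encodes an FGF receptor, and of the 9 regions nearer to it than to another gene 5 were called in immobilized cells alone. The Morrbid window had scores of 31.3 in day 7 immobilized, 33.0 in day 7 non-immobilized and 23.5 at day 0, and ranks of 24.6%, 17.0% and 27.7%. The Gm30657 window ranked at 13.1%, 10.8% and 13.6% and the Gm8883 window at 32.0%, 39.5% and 53.1%.

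In the Mir205hg promoter, 2.74 kb from the miR-205 hairpin, the region was called in immobilized cells alone, with a score of 15.0 and a rank of 50.2%. The other regions within 10 kb of that hairpin were one of immobilized cells and day 0, at ranks of 69.8% and 77.8%, and one of non-immobilized cells alone, at 84.9%. Keratinocyte markers had their most regions in immobilized cells too, 21 against 8 in non-immobilized cells and 6 at day 0, and their part was not tested. The region nearest to the miR-29 hairpins, 2.51 kb from Mir29b-1 and 2.86 kb from Mir29a, was also called in immobilized cells alone, with a score of 16.2 and a rank of 46.8%. A region 3.57 kb from Mir29a was called at day 0 alone, at 92.5%, and one 8.11 kb away in non-immobilized cells and at day 0, at 71.7% and 56.7%.

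The pair Mir99a and Mirlet7c-1 lay among 4 distal regions within 10 kb, of which 3 were called in all 3 libraries and 1 at day 0 alone. The nearest, 3.09 kb from Mirlet7c-1, ranked at 21.7% in day 7 immobilized, 43.7% in day 7 non-immobilized and 65.1% at day 0, and the next, 4.23 kb from Mir99a on the other side, at 41.1%, 33.6% and 37.3%. Mir125b-1 had 2 regions, both called in all 3 libraries. The nearer, 1.11 kb away, ranked at 72.6%, 49.7% and 67.8%, and the other, 2.13 kb away, at 40.9%, 31.0% and 35.5%. The nearest region to Mir100, 14.5 kb away, ranked at 23.8%, 33.4% and 31.0%. In all, 44 miRNA hairpins had a distal region within 10 kb, of which 28 belong to the imprinted cluster between Rtl1 and Dio3 and lie near the same few regions, so they do not count separately. There a region 2.02 kb from Mir3072 ranked at 15.6% in day 7 immobilized, 19.3% in day 7 non-immobilized and 19.8% at day 0, and a region 0.285 kb from Mir667 was called at day 0 alone, at 72.8%.

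The best-ranked distal regions were called in all libraries. The first place of all 3 lists, with scores of 208 in day 7 immobilized, 180 in day 7 non-immobilized and 196 at day 0, went to chr17:39846582-39847605, inside Rn18s-rs5, a pseudogene copy of ribosomal RNA, where the placement of reads among the many ribosomal copies is uncertain. A region 281.8 kb from Pex2, a peroxisome gene, followed with scores of 132, 101 and 134, and one 110.2 kb from Ogfrl1 with 99.1, 86.3 and 88.4. The region by Pex2 ranked at 0.0063%, 0.0981% and 0.0104%, far from the median distal region. Regions were not screened here for sites of artificially high signal, so such a source was not tested. Of the regions shared by both day 7 libraries and not called at day 0, the best lay 166.4 kb from Dcn, the matrix proteoglycan decorin, with scores of 37.2 in immobilized and 33.5 in non-immobilized cells. The next lay 121.8 kb from Gadd45g, a stress-response gene, with 34.4 and 26.9, and 233.4 kb from Zpld1 with 33.4 and 26.0.

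The best region of immobilized cells alone lay at chr11:112140666-112141166, in the gap between Gm11677 and Sox9, 414.6 kb from Gm11677 and 641.3 kb from Sox9, with a score of 30.5 and a rank of 25.1%. Non-immobilized cells alone had their best at 126.2 kb from Gm4832, with a score of 22.0 and a rank of 25.3%, and it lay beside the best region of immobilized cells and day 0, with scores of 25.9 in immobilized cells and 27.7 at day 0. Day 0 alone had its best 120.9 kb from Gm5148, with a score of 30.8 and a rank of 21.2%, and next a region 933.3 kb from Cited2, a transcriptional co-regulator, with a score of 28.6 and a rank of 22.8%. Non-immobilized cells and day 0 shared their best 194.6 kb from Zfhx3, with scores of 16.5 and 24.1. The farthest distal region lay 2.19 Mb from the nearest gene end, between Celf4 and Pik3c3, and was called in all 3 libraries, at ranks of 60.2%, 54.1% and 28.5%. The next, 2137.7 kb from Cntnap5b, was also called in all 3, at 53.9%, 53.7% and 72.9%.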

How the data were processed

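Groups were taken from the sample labels: day 7 immobilized, day 7 non-immobilized and day 0, 1 library each. The labels' protocols name Omni-ATAC as the method. Per the submitters' processing notes, reads were handled with Bowtie2 2.3.4.1 and MACS2 2.1.2 on the build mm10, among other tools. Transposase shift, read filters and the peak threshold are not given in the sources used. The deposited lists, 1 per library, hold a 1 bp summit for each peak. The score beside it was computed by the authors' peak caller, and by the layout of the deposited files it is a −log10 value, of p or of q. The score was used to rank summits within a list. A deposited table of run statistics gives the counts of reads, the duplicated fraction and the percent aligned.

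Each list was reduced to its 47912 best summits, which left out 19492 of day 7 immobilized, 0 of day 7 non-immobilized and 3810 of day 0, and lowest scores kept were 6.61, 1.33 and 4.00. Windows of 250 bp on each side were joined where they met. A library called each region that held one of its summits, and distances run from its midpoint to 20665 autosomal protein-coding genes of the RefSeq table for GRCm38.p6, which gives gene ends without strand. Intervals were named by the genes around them. No genome sequence was used, so base composition and motifs of the regions themselves, planned for 300 bp around summits, were not analysed here, and RefSeq promoter windows took their place. Members and gene lists were chosen with earlier results of these data known.

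The text names the 12 intervals with most regions, the 5 per pair and direction with the largest lean (the difference of one-library counts divided by the square root of their sum), the 3 best-ranked regions per pattern, the 3 farthest, the 3 on either side of the threshold, up to 4 genes per list and a set of 20 genes, with some left out for length. Promoters, lncRNA hosts, miRNAs and the added list genes Klf5, Ets2 and Jun were chosen after their values were seen. Region building was checked on 5000 simulated regions, of which 5000 returned their pattern. Scripts ran in Python 3.11.15 with scipy 1.17.1 for the limits, pandas 2.3.3 and numpy 2.4.6.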

Additional observations from a re-analysis of the deposited data

How the results depend on the processing

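Main values were 7.44% of regions distal, 29.2% of these in all 3 libraries, shares of 57.0% (immobilized against non-immobilized), 42.7% (immobilized against day 0) and 36.7% (non-immobilized against day 0) in the first library of each pair, 24.3% at day 0 alone, which is 10.9 points above the remaining regions, a median best rank 12.4 points further down than theirs, 53.3% with another within 10 kb, and 7.35 per Mb. Of 97 values under other settings, 40 lay inside the main interval, 55 outside it, and 2 turned round. Both were immobilized cells against day 0, at 64.4% with the lists as deposited and 53.8% for the same regions called wherever a whole deposited list has a summit, a setting added after the data were seen; these settings give immobilized cells more summits. The lists as deposited also gave 7.97% distal, 26.9% in all 3, 85.2% and 30.9% for the other pairs, 18.0% at day 0 alone (7.83 points above), 59.4% with another within 10 kb and 9.25 per Mb. The same regions by whole lists gave 33.8% in all 3, 75.0% and 34.7% for the other pairs, and 18.7% at day 0 alone (8.96 points above). Lists of 50% of the common length gave 5.23% distal, 13.5 points for day 0 alone, 16.2 points of rank, 29.0% with another within 10 kb and 2.47 per Mb.

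Widening by 100 bp gave 24.4% in all 3, 54.3% (immobilized against non-immobilized), 38.7% (non-immobilized against day 0), 26.0% at day 0 alone, 61.0% with another within 10 kb and 8.03 per Mb. Widening by 500 bp gave 7.64% distal, 31.3% in all 3, 45.4% with another within 10 kb and 6.82 per Mb. A distance of 50 kb gave 12.8% distal, 31.2% in all 3, 45.7% and 39.3% against day 0 for immobilized and non-immobilized cells, 21.8% at day 0 alone (8.68 points above), 56.7% with another within 10 kb and 9.93 per Mb. A distance of 200 kb gave 3.27%, 26.8%, 37.8%, 32.1%, 28.3% (14.6 points above), 45.2% and 4.59 per Mb for the same results, and 14.2 points of rank. Counting non-coding genes as genes left 495 regions, 0.736% of all, with 25.7% in all 3, 61.0% (immobilized against non-immobilized), 31.9% (non-immobilized against day 0), 27.7% at day 0 alone (13.6 points above), 15.6 points of rank, 35.8% with another within 10 kb and 2.40 per Mb. Counting both flanking genes put 33.0% of distal regions beside a list gene, against 18.6% by the nearer gene. Distances from the best summit moved no value outside its interval, and no distal region lay in a 10 kb window with more than 5 regions. The excess at day 0 alone was above 0 under every setting run. Among the 12 fullest intervals the library with the highest count also depended on list length: immobilized cells led in 2 and day 0 in 10 at equal length, in 7 and 5 as deposited, and in 3 and 4 with lists of 50% of the common length. The causes were not tested.

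No paired analysis was possible because each group has 1 library, and for the same reason no library was left out in turn. The 200 bp window around summits was not run. The lengths of the lists did not follow depth: day 7 non-immobilized had the most aligned pairs left after duplicates and the shortest list. Weak regions can be missed in any library.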

Other observations

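Large gene-free intervals without a single distal region were bordered in part by genes of neural adhesion. The longest were Tenm3-Aga with 3.99 Mb, Slc39a10-Tmeff2 with 3.97 Mb and Lrrc4c-Iftap with 3.93 Mb, where Tenm3 encodes a teneurin and Lrrc4c a netrin ligand of the synapse. D3Ertd751e-Pcdh10 with 3.58 Mb, Cdh6-Cdh9 with 3.55 Mb and Got2-Cdh8 with 3.14 Mb are bordered by cadherin and protocadherin genes. Of 258 intervals over 1 Mb, 79 held no distal region.

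The share of regions that were distal differed among chromosomes, with the highest on chromosome 13, 514 of 3128 (16.4%, 15.1 to 17.8), and the lowest on chromosome 19, 55 of 2099 (2.62%, 1.98 to 3.40). Gene-free sequence per chromosome was not set beside these shares. Of the 514 on chromosome 13, 103 were called in day 7 immobilized alone, 49 in day 7 non-immobilized alone and 103 at day 0 alone. Over all 5001 distal regions these classes made up 15.1%, 10.6% and 24.3% in the same order. Distal regions measured 503 bp at the median and 1743 bp at most, against a median of 516 bp for the remaining regions.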
